A study of Mus musculus with 29 samples.

Results

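Immunoglobulin gene segment windows are the windows of the deposited gene methylation table that carry the name of a heavy chain (Igh), kappa (Igk) or lambda (Igl) variable, diversity, joining or constant gene. They were chosen by name alone, leaving out 7 windows of Ighmbp2, which is no antibody gene, and 276 of the 260686 windows in the table were found. Of these, 253 carried the name of a variable segment (127 heavy, 125 kappa and 1 lambda), 5 of a diversity segment, 1 of a joining segment (Ighj3) and 17 of a constant gene (16 heavy and Iglc4). A window is a stretch of about 100 CpG cytosines counted over both strands, and its value is the mean percentage of methylated cytosine (%DNAm) in 1 library.

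Antibodies are made by B cells and plasma cells, which join a variable, a diversity and a joining segment of the heavy chain locus, and a variable and a joining segment of a light chain locus, into a single exon. Recombination signal sequences, a heptamer and a nonamer held apart by a spacer, mark where the segments are cut and joined. Class switching then replaces the constant gene behind the joined exon, from Ighm (IgM) and Ighd (IgD) to an IgG gene, Ighe (IgE) or Igha (IgA), through repeats called switch regions that lie upstream of the constant genes. In most other cells of the lung the loci stay in the germline arrangement, and in allergic airways disease (AAD) IgE and IgG1 are the classes best known to rise against the allergen.

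The libraries came from lung DNA (labelled RML) of 29 BALB/c offspring, labelled as females aged 13 weeks, and were made by whole-genome methyl-sequencing (WGMS) after enzymatic conversion. Dams were given saline (Sham) or fine particulate matter, PM2.5 (PM), through the nose before mating and until weaning. Offspring were then sensitised by injection and challenged by aerosol with ovalbumin (OVA), an egg protein, or were nebulised with saline. Whether the offspring nebulised with saline were also sensitised is not plain from the study's methods. Lungs were taken after a lung function test with methacholine, and the study's protocol included a lavage of the airways. The 4 groups are Sham (n = 7, saline dams, no OVA), Sham-OVA (n = 7, saline dams, OVA), PM (n = 7, PM2.5 dams, no OVA) and PM-OVA (n = 8, PM2.5 dams, OVA). The PM offspring received no PM2.5 of their own, although the study states that components of it reached them during lactation. Nothing in the labels says which libraries shared a dam or litter, so the p-values measure the spread between these libraries only. Percentages came without read counts, so the depth behind the value of a window is unknown. Bulk methylation gives no marker level with which to check the tissue label. The mice were BALB/c whereas the reference genome is that of C57BL/6J, and how differences between the strains in these loci bear on the values was not tested. One library went against its label, since Sham replicate 1, labelled female, had a value in 1224 of 1230 windows of the Y chromosome against 29 to 46 in the other 28 libraries. Without it, the call for OVA in Sham changed in 3 of the windows named here, of which Ighe window 1 and Ighv1-14 lost it and Ighg1 window 1 gained it.

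The sequence most of the results turn on is that of the Ighm window, chr12:113422232-113428596 in GRCm38 (minus strand). Only 499 bp of it lie in the annotated Ighm gene and 5866 bp lie upstream, mostly in the intron between the joining segments and the constant exons, so 41 of its 51 CpGs lie upstream of the gene. The window also holds the joining segment Ighj4. The constant exons of Ighm lie mostly in the neighbouring window named for Ighd (Ighd window 2). The intron is known to hold the intronic heavy chain enhancer, in which the octamer bound by POU factors is a classical motif, and the switch region of Ighm. Shown first is the stretch around the octamer ATTTGCAT (searched on both strands), with the octamer in capitals. It lies 4697 bp upstream of the annotated gene start, and the octamer occurs once in the window, as it does at least once in 37.8% of the 31373 windows of similar length. Shown next is the stretch of the window with most copies of AGCT (its own reverse complement), the core of switch repeats, with AGCT in capitals, and for comparison the densest stretch of the window upstream in Ighg1, the IgG1 gene. All were read from GRCm38 on the minus strand, 5′ to 3′.
Ighm octamer stretch (chr12:113427278-113427577): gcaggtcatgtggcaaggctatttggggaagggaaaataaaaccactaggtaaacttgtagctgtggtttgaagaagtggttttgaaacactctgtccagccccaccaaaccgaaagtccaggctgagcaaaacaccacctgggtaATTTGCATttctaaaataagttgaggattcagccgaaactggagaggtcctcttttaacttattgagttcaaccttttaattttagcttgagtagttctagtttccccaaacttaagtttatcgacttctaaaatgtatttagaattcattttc
Ighm switch repeats (chr12:113424747-113424986): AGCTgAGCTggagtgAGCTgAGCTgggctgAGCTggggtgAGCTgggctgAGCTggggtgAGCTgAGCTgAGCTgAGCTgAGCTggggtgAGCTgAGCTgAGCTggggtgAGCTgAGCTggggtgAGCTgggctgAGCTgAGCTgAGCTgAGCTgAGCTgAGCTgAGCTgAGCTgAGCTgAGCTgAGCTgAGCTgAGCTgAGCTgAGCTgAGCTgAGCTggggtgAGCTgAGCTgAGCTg
Ighg1 window 2 switch repeats (chr12:113337390-113337629): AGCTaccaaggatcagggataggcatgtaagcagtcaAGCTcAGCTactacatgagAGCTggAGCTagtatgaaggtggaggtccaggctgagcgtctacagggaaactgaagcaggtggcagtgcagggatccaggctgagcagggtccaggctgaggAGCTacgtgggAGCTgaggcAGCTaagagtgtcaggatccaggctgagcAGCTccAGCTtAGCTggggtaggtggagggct
The Ighm repeat stretch held 38 copies of AGCT and 0 CpGs, the Ighg1 stretch 11 copies and 2 CpGs, and the octamer stretch 3 CpGs. The %DNAm of the Ighm window thus says nothing of the densest repeats, which have no CpG to read. Over whole windows, AGCT occurred 34.4 times per kb in the Ighm window against a median of 4.97 in windows of similar length. Of those 31373 windows, which include the Ighm window, 1 was at least as dense, namely the Ighm window itself. In all, 7 of the 16 heavy constant windows were dense in AGCT (14.7 to 34.4 per kb), namely the most upstream window of each constant gene other than Ighd, whereas the other 9 held 4.46 to 6.42 per kb.

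Recombination signals beside the variable segments are shown with heptamer and nonamer in capitals. They are those of the least methylated variable window (Ighv3-1) and of windows that take part in the OVA comparison below.
Ighv3-1 (chr12:113964349-113964387): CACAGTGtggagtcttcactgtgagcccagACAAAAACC
Ighv1-71 (chr12:115742167-115742204): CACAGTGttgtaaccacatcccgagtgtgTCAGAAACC
Ighv1-61 (chr12:115359102-115359139): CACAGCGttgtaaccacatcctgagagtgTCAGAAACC
Iglv2 (chr16:19260362-19260400): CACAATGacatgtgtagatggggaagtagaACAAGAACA
The Ighv3-1 signal matched the consensus CACAGTG and ACAAAAACC at every base, on a spacer of 23 bases. Of 185 annotated segments searched in the windows, 172 had a clear signal (at most 1 mismatch in the heptamer and 3 in the nonamer), and 11 of those signals (6.40%) held a CpG, Ighv1-71 and Ighv1-61 among them. A match is a description of the letters and not proof of use. CpGs were sparse in the exons too, with 880 of the 15089 CpGs of the 276 windows (5.83%) in an exon of an immunoglobulin gene, so the %DNAm of a window is mostly that of the DNA between segments. The windows were accordingly long, with a median of 12014.5 bp against 4787.5 bp over the table, and 78 of them held more than 1 annotated immunoglobulin gene.

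Heavy chain variable windows had far lower %DNAm than kappa variable windows in lung. These values are of BALB/c DNA read against the C57BL/6J genome, and the part of strain differences in the levels was not tested. In Sham offspring the mean over the 127 heavy variable windows was 49.3% ± 0.538 (SD, n = 7 libraries), over the 125 kappa variable windows 75.4% ± 0.548, and over all 259167 tested windows 69.1% ± 0.367. These means were 49.2, 75.4 and 69.1% without Sham replicate 1 (n = 6). The order was the same in every library, as heavy variable means lay between 48.2 and 50.8% and kappa variable means between 73.3 and 76.7% over all 29. Heavy constant windows (66.6% ± 0.773) and the 5 diversity windows (60.4% ± 1.53) fell between them. Windows under 50% in the mean of Sham libraries made up 67 of the 127 heavy variable windows (52.8%), 0 of the 125 kappa variable windows and 14.4% of all windows tested.

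**Figure D1:**
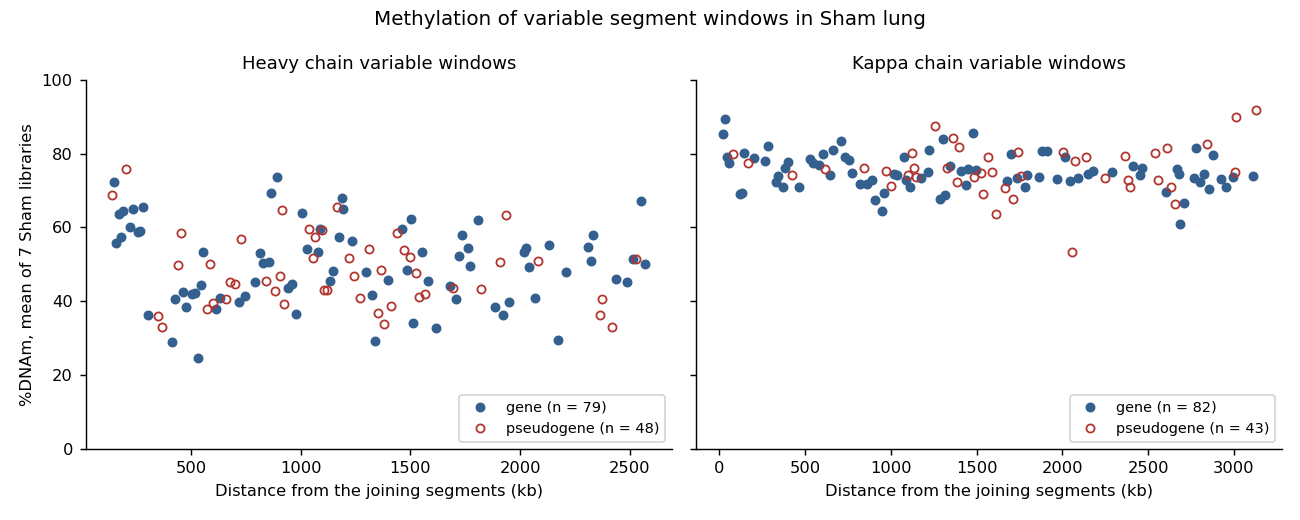
Mean %DNAm of the 7 Sham libraries (vertical axis, percent) for each heavy (left, 127 windows) and kappa (right, 125 windows) variable window against its distance in kb from the window with the joining segments, filled for genes and open for pseudogenes. Heavy windows run between 24.7 and 75.8%, with the 12 nearest all at 55.7% or above, whereas kappa windows lie between 53.4 and 91.7%.

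Along the heavy chain locus the level was not even. The 12 variable windows nearest to the joining segments (139 to 280 kb away) lay between 55.7 and 75.8% with a median of 64.0%, and they were the 5 windows of family Ighv2 and 7 of the 14 of family Ighv5. Beyond them, from 303 to 2572 kb, the other 115 windows had a median of 46.9% (range 24.7 to 73.6%), with 67 under 50%. This border was drawn after the values were seen, at the first window under 50%. Across all 127 windows, level and distance were only weakly related (Pearson's r -0.12, Spearman's rho -0.09), and the same held for the 125 kappa windows (r -0.10, rho -0.13).

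Levels followed the CpG density of a window. Windows with more CpGs per kb were more methylated in both loci (Pearson's r 0.47 for heavy and 0.57 for kappa windows), and longer windows less (r -0.51 and -0.52). Since a window is set to hold a fixed number of CpGs, length and CpG density are largely the same measure, and windows of 1 locus share libraries and neighbours. Pseudogenes, which cannot code for a chain, and genes had like medians, at 46.8% (n = 48) and 50.1% (n = 79) in the heavy locus, and at 75.2% (n = 43) and 74.5% (n = 82) in the kappa locus. By family, the medians of heavy families with at least 5 windows ran from 44.8% in Ighv6 to 58.8% in Ighv5, and those of kappa families from 72.3% in Igkv12 to 79.0% in Igkv3.

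The extremes were the same windows in every group. Ighv3-1, a variable gene, was the least methylated, at 24.7% ± 2.45 in Sham, 26.7% ± 1.67 in Sham-OVA, 24.4% ± 2.93 in PM and 24.4% ± 2.94 in PM-OVA. Igkv1-136, a pseudogene at the far end of the kappa locus, was the most methylated, at 91.7% ± 1.08, 91.7% ± 1.1, 92.9% ± 0.83 and 91.4% ± 1.08 in the same order. With 50 CpGs in 2603 bp it was also the shortest window. The spread between libraries of a group (median SD) was 1.96 points in heavy variable, 1.55 in kappa variable and 1.69 in heavy constant windows, against 1.49 over all windows tested.

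Windows of other names inside the spans of the loci in part hold immunoglobulin genes themselves. Of the 33 in the heavy span, 16 did, with a median of 46.3% in Sham, whereas the 17 that held none had a median of 67.8%, against 73.8% and 69.5% in the windows within 300 kb on either side. Of the 43 in the kappa span, 20 held an immunoglobulin gene (median 75.3%) and 23 held none (median 77.3%), and the windows outside had medians of 76.4% and 80.4%.

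The comparison of OVA with unchallenged offspring asked which immunoglobulin windows differ in AAD, and the largest difference was a fall in the Ighm window. Fewer members passed the test than windows did in general. At an adjusted p under 0.05 (limma over all 259167 tested windows), 31 of 276 windows were called for OVA in Sham, 18 higher and 13 lower in Sham-OVA, where 35.6% of all tested windows were called (13.3% higher and 22.3% lower). For OVA in PM, 35 were called, 5 higher and 30 lower in PM-OVA, against 44.1% of all tested windows (9.26% higher and 34.8% lower). The share called among the members was 11.2% in Sham and 12.7% in PM, and among windows of T cell receptor segments, which also rearrange, 34 and 45 of 130. The median over all tested windows shifted by -0.04 in Sham and -0.10 in PM on the log2 scale of methylated to unmethylated signal, and once libraries were centred on their median the calls split into 34 higher and 6 lower in Sham and 46 higher and 3 lower in PM. That is 14.5% and 17.8% of the members. Of all tested windows, 36.1% were then called in Sham (18.3% higher, 17.8% lower) and 37.6% in PM (18.9% higher, 18.7% lower). Without Sham replicate 1, 23 members (8.33%) were called for OVA in Sham (13 higher), beside 32.9% of all tested windows. Without Sham-OVA replicate 2 there were 20, and the share over all tested windows in that fit is not given here. Leaving out Sham replicate 1 gave a Sham difference of -3.4 points for Ighg1 window 2, 2.91 for Ighg3 window 2, -5.07 for Ighv1-71, 4.22 for Ighv1-61 and -2.5 for Igkv4-60, all still called. As the DNA is from whole lung, a different share of cell types and a different methylation within a cell type cannot be told apart in any of these values.

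A differentially methylated region (DMR), which also needs a difference of at least 10 percentage points, was found for 0 members in Sham (where 49, or 17.8%, had an unadjusted p under 0.05 in limma, as 45.0% of all tested windows did) and for 1 in PM, Ighm. DMRs made up 0.775% and 0.584% of all tested windows. In all, 10 members were called in both arms, which is 3.62% of the members beside 27.3% of all tested windows. They made up 32.3% of the members called in Sham and 28.6% of those called in PM, against 76.7% and 62.0% over all tested windows. The sign was the same for all 10, as it was for 99.9% of all windows called in both arms. Of the 10, 4 were variable windows (Ighv1-71, Ighv1-14, Igkv17-121 window 2 and Iglv2), and 6 were constant windows (Ighm, Ighd window 1, Ighg3 window 2, Ighg1 window 2 and both windows of Ighe).

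Ighm, the constant gene of IgM, is the first behind the joining segments. In Sham the 7 libraries ran from 55.5 to 61.2% with a median of 60.3%, and in Sham-OVA from 47.5 to 53.5% with a median of 50.6%. In PM they ran from 58.0 to 64.1% (median 60.4%) and in PM-OVA from 47.3 to 54.1% (median 50.1%). Every OVA library lay below every unchallenged library of its arm. The group means fell by 9.12 points in Sham, from 59.7% ± 1.93 to 50.6% ± 2.40 (log2 -0.52, SE 0.07, adjusted p = 1.62e-06 in limma), and by 10.3 points in PM, from 60.8% ± 2.41 to 50.5% ± 2.22 (log2 -0.60, SE 0.07, adjusted p = 9.79e-08). The difference between the arms, -1.22 points, did not pass the test (interaction, limma adjusted p = 0.883). Without Sham replicate 1 the difference in Sham was -9.05 points. In PM the fall stayed called in every setting tried but was smaller than 10 points with centred libraries (-8.70), without PM-OVA replicate 1 (-9.89), PM replicate 5 (-9.79) or PM replicate 6 (-9.91), and without PM-OVA replicates 7 and 8 together (-9.91). The window also overlaps 4 annotated genes that are no immunoglobulin genes (Gm25747, Gm22175 and a pair named Gm24022).

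**Figure D2:**
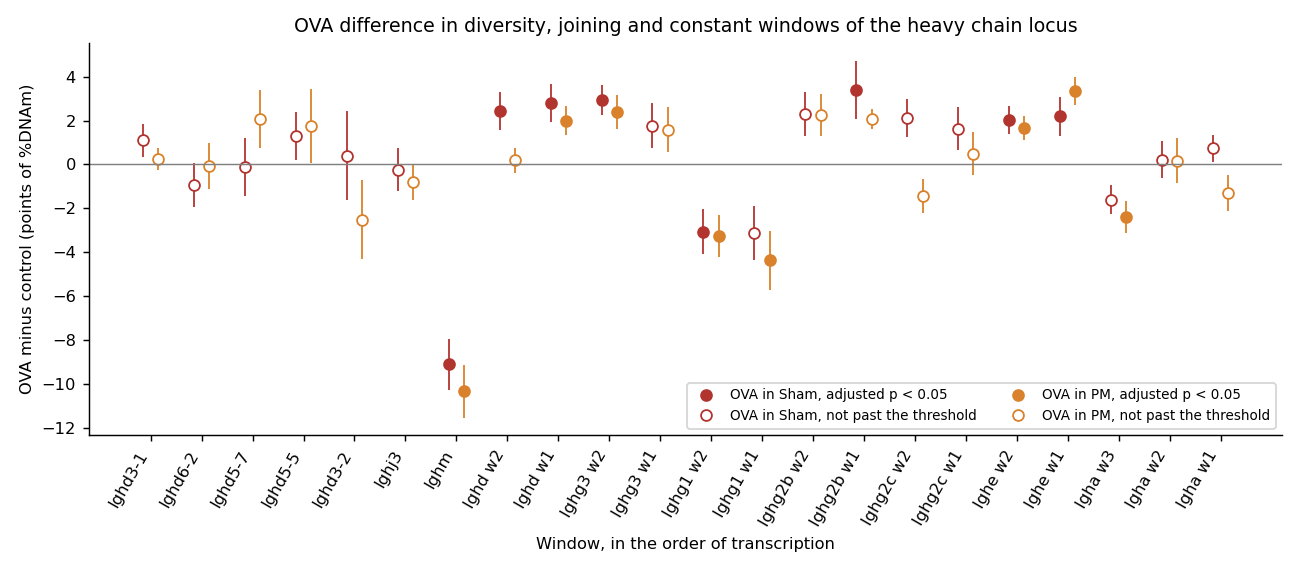
OVA minus control difference in points of %DNAm (vertical axis) for the 22 diversity, joining and constant windows of the heavy chain locus in the order of transcription (w1 and w2 are windows 1 and 2), in Sham (red) and PM (orange) offspring. Points are differences of group means with the standard error from the group SDs, filled where the adjusted p is under 0.05, and the Ighm window stands at -9.12 and -10.3 between neighbours that are near 0 or higher.

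No fall was called in the windows on either side of Ighm. Upstream, Ighj3, whose window holds Ighj1, Ighj2 and Ighj3, differed by -0.24 points in Sham and -0.82 in PM (limma adjusted p = 0.858 and 0.479). Downstream, Ighd window 2, with most of the Ighm exons and part of Ighd, rose by 2.42 points in Sham (76.9% ± 1.1 to 79.3% ± 2.02, adjusted p = 0.0123) and differed by 0.19 in PM (adjusted p = 0.859). Ighd window 1, further into the IgD gene, rose in both arms, from 74.98% ± 0.98 to 77.8% ± 2.04 in Sham (adjusted p = 0.00556) and from 75.5% ± 1.64 to 77.5% ± 0.66 in PM (adjusted p = 0.0349), and in PM this call was lost without PM-OVA replicate 1 or 3 or PM replicate 1, 5, 6 or 7 (differences of 1.64 to 1.90 points). Taking the Ighm window minus the mean of Ighd window 2 and Ighj3 in each library, a measure chosen after the values were seen and so given with no test, gave -9.76 ± 1.69 points in Sham and -20.0 ± 3.03 in Sham-OVA, and -8.99 ± 2.79 in PM and -19.0 ± 2.42 in PM-OVA.

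Ighg1, the constant gene of IgG1, had lower %DNAm in OVA offspring in both of its windows. Ighg1 window 2, the upstream window with the switch repeats shown above, ran from 61.8 to 65.1% in Sham (median 64.0%) and from 57.1 to 64.9% in Sham-OVA (median 60.4%), and from 61.5 to 65.8% in PM (median 63.5%) and 57.5 to 63.3% in PM-OVA (median 60.4%). The groups overlapped, although 6 of 7 Sham-OVA and 8 of 8 PM-OVA values were under the control mean. It fell by 3.06 points in Sham (log2 -0.18, SE 0.06, limma adjusted p = 0.0221) and by 3.26 in PM (log2 -0.20, SE 0.06, adjusted p = 0.00971), and the PM call was lost once libraries were centred (-1.68 points, adjusted p = 0.152), and the Sham call without Sham-OVA replicate 6 (-2.44 points). Ighg1 window 1, with the downstream exons, fell by 4.37 points in PM, from 71.6% ± 2.33 to 67.2% ± 2.85 (adjusted p = 0.00481). In Sham it went from 69.9% ± 2.17 to 66.7% ± 2.45, which did not pass (difference -3.14 points, adjusted p = 0.0568). That difference did pass without Sham replicate 1 or 7, Sham-OVA replicate 1, 6 or 7, PM replicate 3 or 5, or PM-OVA replicate 2 (-3.66 to -3.14 points), and with a mean-variance trend (adjusted p = 0.0471).

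Among the other IgG genes, the calls were rises. Ighg3 window 2, upstream of the IgG3 exons, ran from 58.3 to 61.6% in Sham and 61.4 to 65.5% in Sham-OVA, and from 58.7 to 62.0% in PM and 60.3 to 64.8% in PM-OVA. It rose by 2.94 points in Sham (adjusted p = 0.00605 in limma) and by 2.39 in PM (adjusted p = 0.0158), although the ranges overlapped in both arms. Ighg3 window 1 differed by 1.76 and 1.58 points, neither past the test. Ighg2b window 1 rose by 3.4 points in Sham, from 61.3% ± 3.30 to 64.7% ± 1.30 (adjusted p = 0.00937), and differed by 2.07 in PM (adjusted p = 0.0793), which passed without Sham replicate 7 and with the replicate number as a block. Ighg2b window 2 differed by 2.29 and 2.25 points (adjusted p = 0.0778 and 0.0643). The Sham difference passed without Sham replicate 4 or Sham-OVA replicate 5 or 7 (2.67 to 2.82 points), and the PM difference without PM replicate 3 or PM-OVA replicate 2 (2.79 and 2.80 points). The windows of Ighg2c, an IgG2 gene of the C57BL/6J reference, differed by 1.63 and 0.48 points (window 1) and by 2.11 and -1.44 points (window 2), with 0 of these 4 differences called. That of window 2 in Sham passed on the percent scale (adjusted p = 0.0410) and without Sham-OVA replicate 4 (2.64 points, adjusted p = 0.0188). With centred libraries more rises were called, namely Ighg2b window 2 in Sham and PM (2.92 and 3.81 points, adjusted p = 0.0219 and 0.00263), Ighg2b window 1 in PM (3.60 points, adjusted p = 0.0032), Ighg3 window 1 in PM (3.20 points, adjusted p = 0.0105) and Ighg2c window 2 in Sham (2.77 points, adjusted p = 0.0142).

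Ighe, the constant gene of IgE, was more methylated in OVA offspring. Ighe window 1, which holds most of its exon bases, ran from 74.0 to 78.6% in Sham (median 76.8%) and from 76.8 to 80.7% in Sham-OVA (median 78.2%), and from 74.3 to 78.1% in PM (median 76.8%) and 78.6 to 82.1% in PM-OVA (median 80.03%). All 8 PM-OVA libraries lay above all 7 PM libraries, whereas the Sham groups overlapped. It rose by 2.19 points in Sham (log2 0.17, SE 0.06, limma adjusted p = 0.0315) and by 3.34 in PM (log2 0.28, SE 0.06, adjusted p = 0.000628). Without Sham replicate 1 the Sham difference was 2.03 points and no longer passed (adjusted p = 0.0611), and the same held without Sham replicate 3 or 7 or Sham-OVA replicate 1, 2 or 4 (1.79 to 2.03 points). Ighe window 2, with 123 copies of AGCT, rose by 2.02 points in Sham (adjusted p = 0.0197) and by 1.65 in PM (adjusted p = 0.0348), a call that was lost with the replicate number as a block (adjusted p = 0.0603), and without PM-OVA replicate 1, 5 or 8 or PM replicate 4 or 7 (1.34 to 1.65 points). The Sham call was lost without Sham-OVA replicate 1 (1.69 points).

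Igha, the constant gene of IgA, lies furthest downstream, and 1 of its 3 windows was called in 1 arm. Igha window 3, the most upstream of its windows with 148 copies of AGCT, ran from 66.8 to 68.4% in PM and 62.4 to 68.7% in PM-OVA and fell by 2.38 points (67.5% ± 0.63 to 65.1% ± 1.97, limma adjusted p = 0.0138). With centred libraries that difference was -0.89 (adjusted p = 0.344). In Sham it differed by -1.61 points (adjusted p = 0.117), which passed without Sham-OVA replicate 2 (-2.08 points). The other Igha windows differed by 0.73 and -1.29 points (window 1) and by 0.21 and 0.18 (window 2), none past the test.

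Of the 7 windows dense in switch repeats, 3 were lower in OVA offspring in both arms (Ighm, Ighg1 window 2 and Igha window 3) and 3 were higher in both (Ighg3 window 2, Ighg2b window 2 and Ighe window 2). Of the 9 other constant windows, 1 was lower in both arms (Ighg1 window 1) and 7 were higher in both. Counting called windows only, 8 of 16 heavy constant windows (50%) passed in each arm, 6 higher and 2 lower in Sham and 4 higher and 4 lower in PM, beside 35.6% and 44.1% of all tested windows. With centred libraries 10 passed in Sham (8 higher, 2 lower) and 9 in PM (7 higher, 2 lower). Of all tested windows, 36.1% (18.3% higher, 17.8% lower) and 37.6% (18.9% higher, 18.7% lower) then passed.

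**Figure D3:**
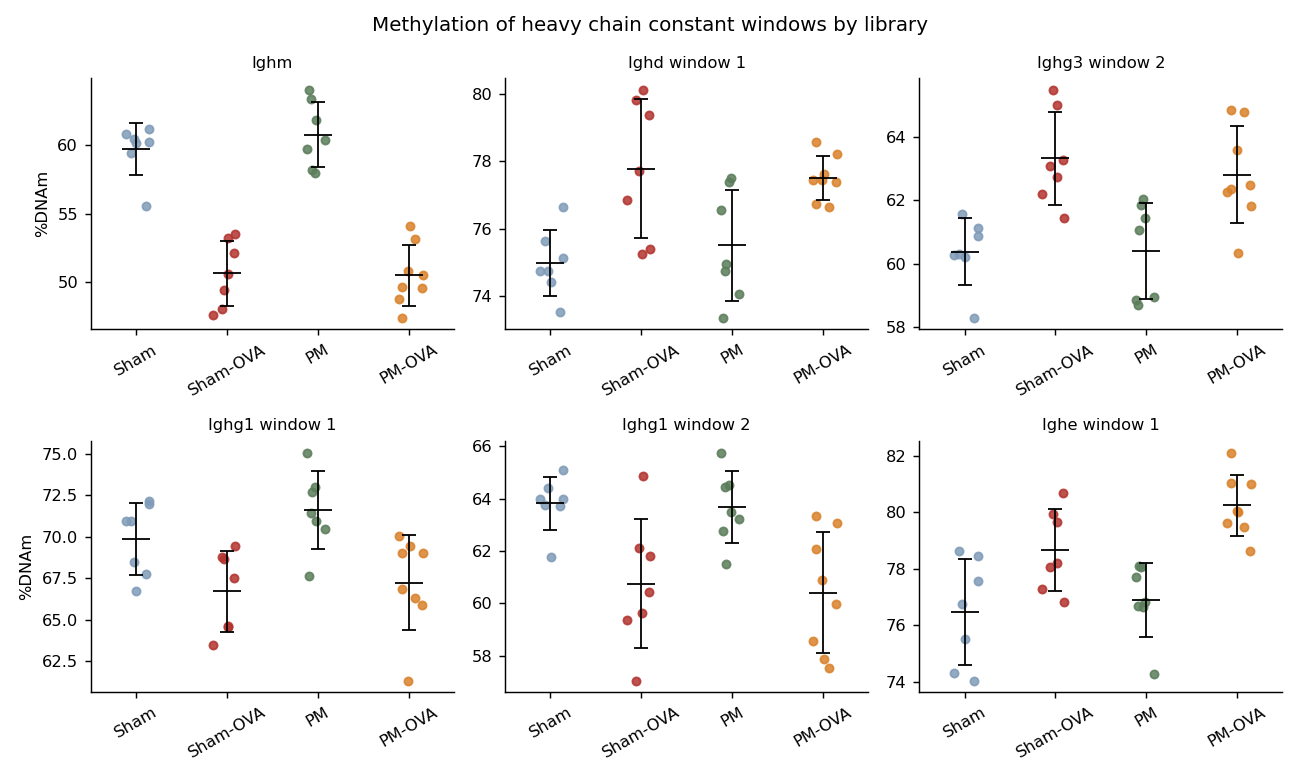
%DNAm (vertical axes, percent, each panel on its own scale) of every library in 6 heavy chain constant windows, by group. Bars are the mean and SD of 7 libraries a group (8 for PM-OVA), and the groups with OVA sit apart from their controls for Ighm but overlap them in most other panels.

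Diversity windows, which hold the short segments between variable and joining genes, gave 0 calls among 5 in both arms (limma, with 0 at an unadjusted p under 0.05). Of all tested windows, 35.6% in Sham and 44.1% in PM were called, and 45.0% and 51.4% had an unadjusted p under 0.05. Ighd3-2 was 51.6% ± 4.78 in Sham and 52.0% ± 2.39 in Sham-OVA, 51.2% ± 4.17 in PM and 48.6% ± 2.47 in PM-OVA. Ighd5-5, Ighd5-7, Ighd6-2 and Ighd3-1 differed by -0.93 to 1.29 points in Sham and by -0.07 to 2.07 points in PM. With centred libraries Ighd5-7 (3.68 points, adjusted p = 0.0204) and Ighd3-1 (1.73 points, adjusted p = 0.047) were called higher in PM, and without PM replicate 3 Ighd3-2 was called lower in PM (-4.06 points, adjusted p = 0.0404).

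Among heavy variable windows, which supply most of the antigen-binding part of the heavy chain, 12 of 127 were called in Sham (9 higher, 3 lower) and 2 in PM (0 higher, 2 lower), which is 9.45% and 1.57% beside 35.6% and 44.1% of all tested windows. With centred libraries 21 were called in Sham (20 higher) and 29 in PM (29 higher), beside 36.1% and 37.6% of all tested windows. Without Sham replicate 1, 8 (6.3%) were called in Sham (6 higher, 2 lower), beside 32.9% of all tested windows. On the values as deposited, the median difference was 0.463 points in Sham and -0.163 in PM, against -0.414 and -1.03 over all tested windows. Ighv1-71 fell in both arms, from 54.6% ± 1.80 to 49.96% ± 3.36 in Sham (-4.68 points, log2 -0.27, SE 0.07, limma adjusted p = 0.00463) and from 53.0% ± 1.73 to 49.1% ± 2.26 in PM (-3.90 points, adjusted p = 0.0109). Against the control mean, 7 of 7 Sham-OVA and 7 of 8 PM-OVA values were lower, but the ranges overlapped (52.1 to 57.1% against 43.6 to 54.1% in Sham). Ighv1-14, a window named for a pseudogene that also holds Ighv1-15, fell by 2.34 points in Sham and 2.94 in PM (adjusted p = 0.0254 and 0.00351). Its call in Sham was lost without Sham replicate 1 (-2.07 points, adjusted p = 0.0594), Sham replicate 5, or Sham-OVA replicate 2 or 3 (-2.13 to -2.05 points). With centred libraries the falls of Ighv1-71 in PM and of Ighv1-14 in both arms were no longer called.

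Rises in heavy variable windows were called in Sham, and in PM 0 were called on the values as deposited. Ighv1-61 rose by 4.56 points in Sham (36.2% ± 1.92 to 40.8% ± 3.33, limma adjusted p = 0.0083) and differed by 1.89 in PM (38.1% ± 3.09 to 40.0% ± 1.5, adjusted p = 0.229), and with centred libraries the PM rise was called too (3.48 points, adjusted p = 0.0332). Ighv7-3 rose by 2.57 points in Sham (39.7% ± 1.1 to 42.3% ± 1.34, adjusted p = 0.0164) and differed by 0.13 in PM (adjusted p = 0.916). That these windows differ between the arms was not shown, since 0 members passed the interaction test. The remaining 8 called heavy variable windows in Sham (7 higher, 1 lower) moved by 2.02 to 2.36 points in either direction.

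Kappa variable windows were mostly lower in OVA offspring, as most windows of the table were. In Sham-OVA, 90 of the 125 (72%) had a lower mean than in Sham, and in PM-OVA 113 of 125 (90.4%) had a lower mean than in PM, beside 59.1% and 69.2% of all tested windows. Calls numbered 10 in Sham (2 higher, 8 lower) and 24 in PM (0 higher, 24 lower), which is 8% and 19.2% beside 35.6% and 44.1% of all tested windows, with a median difference of -0.666 and -1.15 points. With centred libraries the calls numbered 8 in Sham (5 higher, 3 lower) and 7 in PM (6 higher, 1 lower), which is 6.4% and 5.6% beside 36.1% and 37.6% of all tested windows. Without Sham replicate 1 there were 6 calls in Sham (1 higher, 5 lower), which is 4.8% beside 32.9% of all tested windows. Igkv4-60, a pseudogene, fell by 2.69 points in Sham, from 87.5% ± 1.56 to 84.8% ± 1.5 (log2 -0.31, SE 0.07, limma adjusted p = 0.00181), and differed by -1.30 in PM (adjusted p = 0.0965). Igkv17-121 window 2 fell in both arms, by 2.5 and 2.09 points (adjusted p = 0.0217 and 0.0393), and both calls were lost with centred libraries. Its Sham call was also lost without Sham replicate 2 or Sham-OVA replicate 5 (-2.06 to -1.91 points), and its PM call without PM replicate 1, 3, 4 or 7 or PM-OVA replicate 4, 5, 7 or 8 (-2.10 to -1.76 points) or with the replicate number as a block. Igkv2-95-1, a pseudogene, rose by 2.62 points in Sham (53.4% ± 0.66 to 56.0% ± 1.33, adjusted p = 0.00607) and differed by 1.24 in PM (adjusted p = 0.156), where it was called higher with centred libraries (2.89 points, adjusted p = 0.00461). Igkv2-95-2, also a pseudogene, differed by -0.87 points in Sham (adjusted p = 0.597) and fell by 3.46 in PM (80.1% ± 2.62 to 76.6% ± 2.64, adjusted p = 0.0145). Igkv1-136 fell by 1.47 points in PM (adjusted p = 0.0193), a call lost without PM-OVA replicates 7 and 8 together, and differed by -0.03 in Sham. With centred libraries the PM falls of Igkv2-95-2 and Igkv1-136 were no longer called. Beyond these, the called kappa windows moved by at most 2.87 points.

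The lambda locus held 2 windows. Iglv2, a lambda variable gene, ran from 68.4 to 72.2% in Sham and from 71.1 to 74.7% in Sham-OVA, and from 68.4 to 72.2% in PM and 69.4 to 75.9% in PM-OVA. It rose by 2.32 points in Sham and 2.61 in PM (limma adjusted p = 0.0329 and 0.00963), against the direction of most kappa variable windows, and the Sham call was lost with the replicate number as a block (adjusted p = 0.0553), and without Sham replicate 3, 5 or 7 or Sham-OVA replicate 2 or 4 (1.90 to 2.23 points). Iglc4, whose window also holds Iglc2, Iglj2 and Iglj4, differed by 1.33 and 0.93 points (adjusted p = 0.316 and 0.435), and with centred libraries it was called in PM (2.30 points, adjusted p = 0.0293).

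Other immunoglobulin genes lay in windows that the table names for another gene, 67 genes in 44 windows, and so fell outside the rule. Among them were all kappa joining segments and the kappa constant gene Igkc, which codes for the constant part of most mouse light chains, both in windows named Gm30211. They were looked at because Igkc and the kappa joining segments have no other window, after the Ighm values were known. The Igkc window (chr6:70724470-70733512) ran from 76.2 to 80.6% in Sham and 66.8 to 71.2% in Sham-OVA, and from 77.3 to 80.9% in PM and 63.7 to 69.2% in PM-OVA. As for Ighm, every OVA library lay below every unchallenged one of its arm. It fell by 8.44 points in Sham (77.8% ± 1.61 to 69.4% ± 1.35, log2 -0.61, SE 0.06, limma adjusted p = 6.76e-08) and by 11.6 in PM (78.4% ± 1.23 to 66.8% ± 2.28, log2 -0.83, SE 0.06, adjusted p = 5.19e-10). The arms differed at an unadjusted p of 0.0238 that did not hold after adjustment (limma interaction, adjusted p = 0.638). The Sham difference was -8.68 points without Sham replicate 1 (adjusted p = 1.35e-07).

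Next to it, the window with Igkj1 to Igkj5 (chr6:70718200-70724403) fell by 4.54 points in Sham, from 76.9% ± 1.42 to 72.3% ± 2.30 (limma adjusted p = 0.00178), and the difference in PM was -6.72 points, from 77.0% ± 1.41 to 70.3% ± 2.98 (adjusted p = 1.53e-05). The lambda window with Iglc1 and Iglc3 and their joining segments (chr16:19054803-19068670, named 2010309G21Rik) fell by 3.44 points in Sham and 3.70 in PM (adjusted p = 0.0023 and 0.000614). The Sham differences of these windows were -4.88 and -3.61 points without Sham replicate 1 (adjusted p = 0.00145 and 0.0026).

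**Figure D4:**
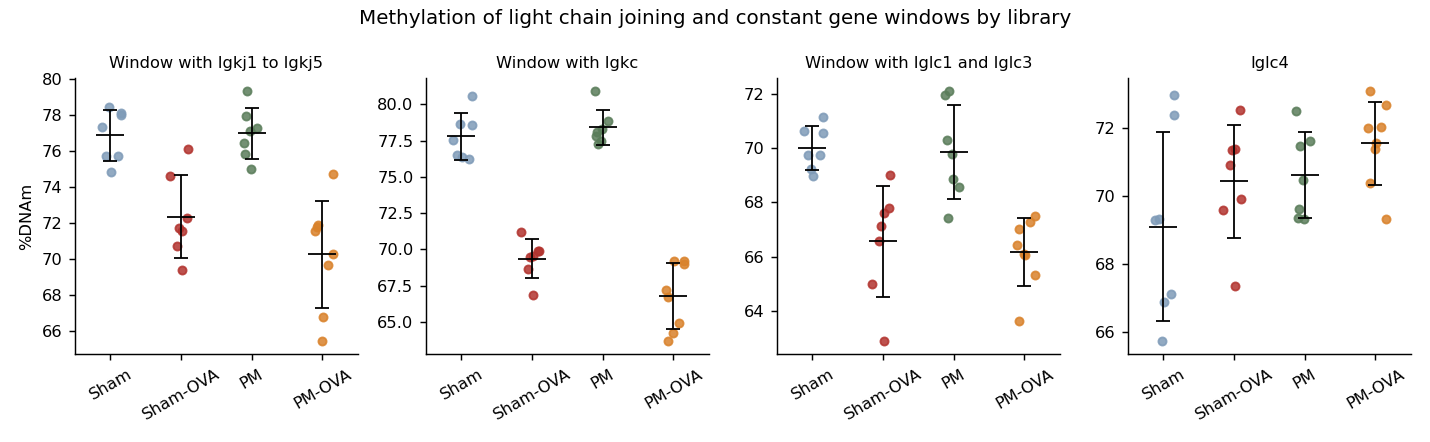
%DNAm (vertical axes, percent, each panel on its own scale) of every library in the windows with the kappa joining segments, Igkc, Iglc1 with Iglc3, and Iglc4, by group, with mean and SD of 7, 7, 7 and 8 libraries. The Igkc groups with OVA (66.8 to 71.2% and 63.7 to 69.2%) lie below all controls, and the Iglc4 groups overlap.

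Maternal PM2.5 by itself, and its combination with OVA, left 0 members and 0 of all 259167 windows past the test (limma). In PM against Sham without OVA, 16 members had an unadjusted p under 0.05, in PM-OVA against Sham-OVA 19 did, and in the interaction 11, which is 5.80, 6.88 and 3.99% of the members against 5.79, 5.96 and 7.40% of all tested windows. Ighg2c window 2 had the smallest p without OVA, at 54.6% ± 1.12 in Sham and 57.6% ± 1.76 in PM (difference 3.01 points, limma adjusted p = 0.805). The same window had the smallest p in the interaction, where the OVA difference was 2.11 points in Sham and -1.44 in PM (adjusted p = 0.576). With OVA, Ighv8-9 was 50.3% ± 1.66 in Sham-OVA and 46.5% ± 2.86 in PM-OVA (difference -3.82 points, adjusted p = 0.816). The OVA difference had the same sign in Sham and PM for 184 of 276 members (66.7%), beside 81.8% of all tested windows.

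**Figure D5:**
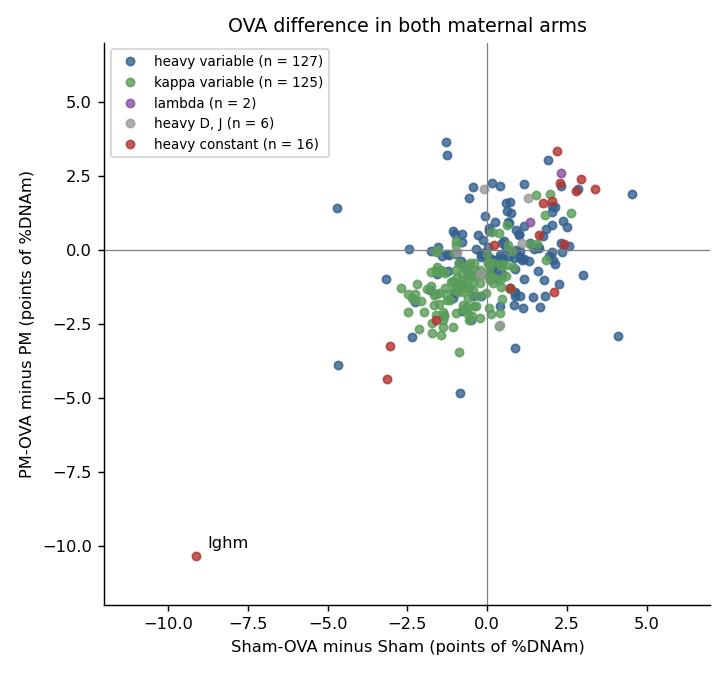
OVA difference of each of the 276 immunoglobulin windows in Sham offspring (horizontal axis) and PM offspring (vertical axis), in points of %DNAm, coloured by chain and class. Ighm lies alone at -9.12 and -10.3, while no variable window differs by more than 4.69 points in Sham or 4.84 in PM.

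Genes that work with antibodies were read from lists of known members. Of 175 windows of 11 B cell genes, 81 were called for OVA in Sham (42 lower) and 79 in PM (51 lower), which is 46.3% and 45.1% of them beside 35.6% and 44.1% over all tested windows. Among the calls, 39 in Sham and 28 in PM were higher. With centred libraries 55 of 94 and 61 of 96 were, beside 47402 of 93467 and 48972 of 97389 calls over all tested windows. Those 94 and 96 calls are 53.7% and 54.9% of the B cell windows, against 36.1% and 37.6% over all tested windows. DMRs numbered 9 in Sham and 8 in PM (5.14% and 4.57% of these windows, beside 0.775% and 0.584% of all tested windows), and falls made up 7 of the 9 and 7 of the 8, where 38.1% and 54.9% of all DMRs were falls. Pax5, a factor of B cell identity, rose from 1.68 to 14.4% in Sham and from 2.25 to 15.6% in PM in 1 of its windows. Cd79b, which carries the signal of the B cell receptor, went from 73.0 to 61.6% in Sham and from 73.6 to 59.7% in PM in 1 of its windows, and Blk, a kinase of B cells, from 79.7 to 66.6% and from 79.9 to 66.5%. Of 53 windows of 8 plasma cell genes, 23 were called in Sham (18 lower) and 26 in PM (22 lower), which is 43.4% and 49.1%, with 3 and 7 DMRs (5.66% and 13.2%, of which 2 and 6 were falls), among them Pou2af1, the octamer coactivator (69.5 to 57.4% and 69.6 to 55.9%). With centred libraries 17 of 24 plasma cell calls were lower in Sham and 16 of 28 in PM, beside 46065 of 93467 and 48417 of 97389 calls over all tested windows. The mean over the plasma cell windows ran from 58.8 to 59.3% in Sham and 56.1 to 58.5% in Sham-OVA, and from 58.8 to 59.8% in PM and 55.9 to 57.4% in PM-OVA. The B cell means overlapped in Sham (68.2 to 69.3% and 67.2 to 69.2%).

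The surrogate light chain, which stands in for kappa or lambda in B cell precursors, and its partners gave 8 of 10 windows called in Sham (7 lower) and 9 in PM (8 lower), where 35.6% and 44.1% of all tested windows were called. In each arm 2 of the 10 were DMRs (20%), and these were the windows of Cd79b, which the B cell list holds as well. Igll1, the surrogate lambda chain, went from 76.8 to 68.5% in Sham and from 76.0 to 68.8% in PM in 1 window, and from 77.5 to 75.3% and 77.8 to 74.9% in the other. Of 12 listed genes of V(D)J recombination, 10 have windows of their own name, and the recombinase genes Rag1 and Rag2 were not analysed here. The 10 had 40 of 165 windows called in Sham (24.2%) and 48 in PM (29.1%), with 1 DMR each (0.606%), and genes of class switching and hypermutation 24 and 32 of 96 (25% and 33.3%) with 0 DMRs, so both lists lay under the share of all tested windows. Windows of antibody receptors and transport genes were called in 10 and 14 of 33 cases (30.3% and 42.4%), with 1 DMR in each arm (3.03%), and Jchain, which links IgM and IgA units, fell in both of its windows (differences of -3.67 and -3.88 points in Sham and -7.47 and -6.24 in PM).

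Markers of other cells moved as well. Eosinophil windows were called lower in 9 of 16 cases in Sham and 10 in PM, with 0 higher, and their mean ran from 68.6 to 70.7% in Sham and 65.5 to 67.6% in Sham-OVA, and from 69.3 to 71.4% in PM and 65.5 to 66.9% in PM-OVA. T cell windows were called in 44 of 84 cases in Sham (32 lower) and 43 in PM (34 lower), with means of 70.1 to 71.3% against 68.4 to 70.1% in Sham and 70.2 to 71.8% against 68.6 to 69.9% in PM. Lung endothelium windows were called in 36 of 67 cases in Sham (31 higher) and 37 in PM (29 higher), with means of 65.9 to 68.8% against 68.8 to 71.0% in Sham and 65.6 to 69.6% against 68.7 to 71.0% in PM. Lung epithelium windows were called in 14 of 39 cases in Sham (10 higher) and 12 in PM (6 higher), and with centred libraries in 20 (16 higher) and 14 (12 higher). These calls stand beside 35.6% and 44.1% of all tested windows, and those with centred libraries beside 36.1% and 37.6%. The plasma cell, eosinophil and T cell means thus were lower, and the endothelium mean higher with overlapping ranges, in the same libraries in which Ighm and Igkc were lower, and their part in the immunoglobulin results was not tested. The differences of these means were -1.65 and -2.44 points in Sham and PM for plasma cell, -3.56 and -3.89 for eosinophil, -1.11 and -1.42 for T cell and 2.75 and 1.79 for endothelium windows, beside -0.318 and -0.979 over all tested windows. For B cell windows they were -0.442 and -0.992, close to those over all tested windows, and for epithelium windows 0.724 and -0.105. Without Sham replicate 1 the Sham calls numbered 76 for the B cell, 23 for the plasma cell, 41 for the T cell, 9 for the eosinophil, 12 for the epithelium and 36 for the endothelium list. In that fit 32.9% of all tested windows were called.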

How the data were processed

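WGMS was performed on lung DNA of 29 offspring libraries. The authors trimmed reads with Trim Galore, called methylation with DRAGEN against GRCm38, and deposited in 1 table the percent methylation (%DNAm) of gene-overlapping windows of 100 CpG cytosines summarised in SeqMonk. The study's methods give a high genome-wide coverage per library, but no read counts per window were used here, so the depth behind a window's value is unknown and no counting error can be given.

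Windows were taken by name. Gene names and exons came from GENCODE M21 and sequences from the RefSeq copy of GRCm38 (Python 3.11.15, pysam 0.24.0). Windows with fewer than 3 values in any group were dropped, which left 259167 windows and all 276 members, of which 1 (Ighv8-10) lacked 1 value in Sham. Percentages were transformed to log2 ratios of methylated to unmethylated percent after adding 1 point to each, and a 4-group model of all 29 libraries was fitted with limma 3.58.1 in R 4.3.3, with Benjamini-Hochberg adjustment over all tested windows. Differences in points are those of group means. A count test, as the study used, needs reads. The code was tested on simulated data.

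Named windows were every diversity, joining and constant window, the DMRs, the 3 called variable windows with the largest fall and rise per OVA contrast, the smallest p of the other contrasts, and the lowest and highest variable windows. Members, gene lists and this rule were chosen with earlier results of these data known. Alternatives covered the points added, the scale, centring, missing values, thresholds, a replicate block, a mean-variance trend, single libraries left out and windows with other genes.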

Additional observations from a re-analysis of the deposited data

Results flagged for a closer look

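The 35 named windows and the means of 4 window classes (heavy variable, kappa variable, heavy diversity and heavy constant), in 4 groups each, gave 156 sets of 7 or 8 libraries. In 12 of these, all from named windows, the lowest or highest library stood apart from the rest by Dixon's criterion, and chance alone marks about 1 in 20 groups. In Sham, replicate 7 was lowest for Ighm at 55.5% (next 59.5%), for Ighg2b window 1 at 54.7% (next 61.2%) and for Ighg3 window 2 at 58.3% (next 60.2%), and replicate 1 was lowest for Ighg1 window 2 at 61.8% (next 63.7%). In Sham-OVA, replicate 7 was lowest for Ighd5-7 at 51.1% (next 55.4%) and replicate 4 highest for Ighv1-61 at 47.5% (next 41.5%). In PM, replicate 7 was lowest for Ighe window 1 at 74.3% (next 76.7%) and for Ighg2b window 1 at 60.9% (next 62.7%), replicate 3 was highest for Ighg2b window 2 at 64.9% (next 61.8%) and lowest for Ighd3-2 at 42.0% (next 50.9%), and replicate 2 was lowest for Ighd5-5 at 50.2% (next 55.5%). In PM-OVA, replicate 6 was lowest for Ighv7-3 at 36.2% (next 40.6%).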

How the results depend on the processing

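The number of called members was 31 for OVA in Sham and 35 for OVA in PM. Leaving out single libraries gave 20 to 33 in Sham, with the 20 reached without Sham-OVA replicate 2, and 25 to 41 in PM. At an adjusted p under 0.05, Ighm was called in both arms under every alternative fit run on it. Under the study's stricter 1e-06 it would pass in PM (9.79e-08) but not in Sham (1.62e-06). Keeping only windows that hold immunoglobulin genes alone leaves out the Ighm window itself. The 0 DMRs then found in PM say nothing of its difference. As the only DMR, Ighm was lost in PM (0 DMRs) with centred libraries, and without PM-OVA replicates 7 and 8. These were left out together, a choice made after seeing the data, because their library names carry Rel in place of a plain number, the meaning of which is not given in the sources used here. Over single libraries left out, the number of DMRs in PM was 0 to 1. With a minimum of 5 points, 1 DMR was found in Sham. Mean levels in Sham came to 48.3% for heavy variable windows weighted by CpG number and to 65.3% for the median of heavy constant windows. Minus the mean of all tested windows they were -19.8, 6.26 and -2.52 points for heavy variable, kappa variable and heavy constant windows.

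The signs of some uncalled differences (in points) turned, and the cause was not tested. With centred libraries they were 0.179 for Igha window 1, 0.190 for Ighg2c window 2, 0.748 for Ighj3, 1.34 for Ighd6-2, 0.679 for Ighv8-9 and 1.17 for Ighv3-1 in PM, and 0.392 for Ighj3, 0.555 for Ighd5-7 and 0.210 for Igkv1-136 in Sham. Without PM-OVA replicates 7 and 8 they were -0.208 for Igha window 2, 0.0386 for Ighv8-9 and 0.184 for Ighv3-1 in PM. Over single libraries left out, the PM difference ran from -0.340 to 0.652 for Igha window 2, -0.134 to 0.457 for Ighd window 2, -0.485 to 0.599 for Ighd6-2, -0.761 to 0.540 for Ighv3-1 and -0.156 to 0.765 for Ighv7-3. The Sham difference ran from -0.284 to 0.693 for Igha window 2, -0.697 to 1.42 for Ighd3-2, -0.570 to 0.760 for Ighd5-7, -0.826 to 0.360 for Ighj3 and -0.309 to 0.248 for Igkv1-136.

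With the replicate number as a block, 28 members were called in Sham and 28 in PM, and the uncalled PM difference of Ighv3-1 became 0.419 points. Libraries with the same number shared little (42 pairs, r from -0.0409 to 0.104, and 9 of 29 correlated best with their own number). The library names carry another number, or Rel, in 10 of the 29 libraries. By the library number, for the 27 that have one, 36 pairs gave r from -0.0283 to 0.104, and 7 correlated best with their own number, so neither number was taken to pair the libraries. That number as a block, chosen after seeing the data, gave 30 calls in Sham and 31 in PM. The calls of Igkv17-121 window 2 and Igkv1-136 in PM were lost (-1.41 and -1.26 points), Ighg2c window 1 and Ighg2b window 2 passed in Sham (2.60 and 2.90 points), and uncalled differences turned to -0.490 for Igha window 2 and -0.00535 for Ighv7-3 in PM, and to 0.860 for Ighd5-7 and 0.0148 for Igkv1-136 in Sham. Since no read counts were used, the counting error of a value cannot be told apart from the rest of the spread between libraries. Reads from near-identical segments may also be placed in the wrong window.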
